A study of Mus musculus with 14 samples.

Results

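Old and young MPP3, the myeloid-biased multipotent progenitors of mouse bone marrow, were compared on 6 of the 14 arrays of the series. MPP3 had been sorted from wild-type C57BL/6 mice as Lin-/cKit+/Sca-1+ cells without Flk2 and CD150 and with CD48, 3 samples from young mice of 8 to 10 weeks and 3 from old mice of 24 months, with 20000 cells per sample. The members were all genes with a probe set of a single symbol, which gave 19155 genes, and they are described over the whole ranking from the genes higher in old MPP3 to those lower. The other 8 arrays held MPP4, lymphoid-biased progenitors that carry Flk2, from mice of the same ages (5 young and 3 old samples), and they serve below as a second age comparison. Mice of both sexes were used. The labels call the samples biological replicates and do not say how many mice gave each one.

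Multipotent progenitors lie between hematopoietic stem cells and the committed progenitors of blood. MPP3 feed mainly the granulocyte and macrophage lineage: they begin to transcribe genes of granule enzymes and myeloid receptors before they leave the multipotent compartment, while they still carry low levels of stem cell and lymphoid genes. With age, blood production in the mouse is known to shift toward the myeloid lineages and away from B cells.

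The deposited values are a score of rank: the brighter a probe set stood on its array, the smaller the share of probe sets that reached it, and the score is the negative natural log of that share. The middle of an array lies at 0.693, and the scale is stretched toward the brightest probe sets. A difference is therefore a shift in rank and never a fold. Replicate values are given in the order 1, 2 and 3. As the samples are bulk RNA of sorted cells, more cells of a kind and more RNA per cell cannot be told apart.

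The arrays were not evenly alike. Across genes, young replicates 2 and 3 correlated at 0.991 and young replicate 1 at 0.963 and 0.964 with them, below its 0.974 with old replicate 3 and 0.972 with old replicate 1. Old replicates 1 and 2 correlated at 0.978, and old replicate 3 at 0.972 and 0.953 with them. Young replicate 1 also went against the other 5 arrays in its sex-linked RNA, with Xist at 3.52 against 0.138 to 0.196 and Eif2s3y at 0.0221 against 1.63 to 1.96. The young arrays had been part of an earlier deposit, so age and series cannot be told apart. Results are also given against young replicate 1 alone or without single arrays. Against young replicate 1 alone, age and its sex-linked difference from every old array cannot be told apart.

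The sorted identity was checked on the genes of the gate. Kit, the receptor of stem cell factor, was at 3.10, 3.09 and 3.03 in young and 3.02, 2.63 and 2.95 in old MPP3, lower on every old array. Slamf1, the gene of CD150, which MPP3 lack, was at 0.141, 0.168 and 0.111 in young MPP3 against 0.251, 0.126 and 0.192 in old MPP3, below the middle of every array. Cd48 was at 2.69, 2.50 and 2.68 on the young arrays and 2.37, 2.34 and 2.48 on the old ones, lower on every old array by a difference of -0.227 ± 0.0690 (SE). Ly6a, which encodes Sca-1, was not among the genes measured. Flt3, whose product Flk2 the gate excludes, was at 2.20, 2.02 and 2.16 in young and 1.84, 1.42 and 2.10 in old MPP3 and did not separate the ages, while on the 8 MPP4 arrays it lay between 2.77 and 3.53. Of 24 measured markers of cells outside the gate, 7 were below the middle of the array on all 6 arrays, among them Ms4a1 of B cells and Ly6g of neutrophils. In all, 14 had a higher old mean and 3 were higher on every old array: the eosinophil peroxidase Epx, the basophil protease Prss34 and the macrophage gene Adgre1. Adgre1 was also below the middle of every array. Of the other macrophage markers, Cd68 differed by 0.138 ± 0.0891 (SE) and C1qa by -0.116 ± 0.112 (SE).

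No gene passed the test. Of 19155 genes, 0 (0%) had an adjusted p under 0.05 by limma, and the smallest was 0.471. At an unadjusted p under 0.05, 658 genes (3.44%) were higher and 910 (4.75%) lower in old MPP3. By the plainer rule that the 3 old values and the 3 young values do not overlap, 1176 genes (6.14%) were higher and 1541 (8.04%) lower. These percentages are the background against which the counts of each gene group below are to be read. The median difference over all genes was 0.000183, 9605 genes had a higher and 9550 a lower old mean, and 111 differed by more than 0.5, 77 of them higher and 34 lower.

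The spread between replicates was nearly the same at both ages, with a median SD per gene of 0.0709 in young and 0.078 in old MPP3. Among the 1916 genes of the highest mean value, above 2.02, more genes were higher on every old array (188) than lower (134). In each of the other 9 bins of mean value the lower genes were the more numerous, as in the dimmest bin with 131 higher and 155 lower genes. Genes at the top of the arrays and below them thus divided differently between the directions.

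The head of the ranking by moderated statistic held modest differences that the arrays repeated closely. A large statistic needs a small spread, so the closeness of replicates at both ends follows from the ranking and is not a separate result. Thoc6, a subunit of the THO complex that prepares mRNA for export, was at 0.875, 0.883 and 0.811 in young MPP3 against 1.24, 1.25 and 1.37 in old MPP3. Its difference was 0.429 ± 0.0454 (SE, limma adjusted p = 0.471), and the lowest old value lay above the highest young one by more than either group's range. Tbl1xr1, a part of the NCoR corepressor complex, was at 2.34, 2.26 and 2.28 on the young arrays and 2.62, 2.58 and 2.59 on the old ones, a difference of 0.301 ± 0.0325 (SE, limma adjusted p = 0.471). Nfe2l2 encodes NRF2, the transcription factor of the antioxidant response. It was at 1.97, 1.95 and 1.96 in young and 2.16, 2.17 and 2.22 in old MPP3, a difference of 0.222 ± 0.0281 (SE, limma adjusted p = 0.471), with both groups narrow.

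Genes of ubiquitin and of membrane lipids stood beside them. Ube2v2, a partner of the ubiquitin-conjugating enzyme UBC13, was at 2.22, 2.14 and 2.24 in young MPP3 against 2.55, 2.63 and 2.50 in old MPP3. Rffl, a ubiquitin ligase, was at 1.16, 1.13 and 1.11 on the young arrays and 1.46, 1.36 and 1.45 on the old ones. Osbpl2 and Osbpl7, which belong to the oxysterol-binding protein family of lipid carriers, differed by 0.402 ± 0.0545 (SE) and 0.166 ± 0.0251 (SE). Both lie among the genes of small size and small error. Wdr24, a subunit of the GATOR2 complex upstream of mTORC1, was at 0.780, 0.762 and 0.710 in young and 1.01, 0.975 and 1.08 in old MPP3. Ide, the insulin-degrading enzyme, differed by 0.421 ± 0.0495 (SE), Galnt3, which starts O-linked glycans, by 0.453 ± 0.0698 (SE), and Llph by 0.202 ± 0.0300 (SE). Bex6 had the widest difference of the 15, at 1.15, 1.03 and 1.21 in young MPP3 against 1.96, 1.67 and 1.98 in old MPP3. In each of these genes the old and young arrays did not overlap, as the rule of choice required.

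At the other end stood Heg1, a transmembrane receptor, at 1.14, 1.19 and 1.22 on the young arrays and 0.868, 0.797 and 0.858 on the old ones, a difference of -0.342 ± 0.0354 (SE, limma adjusted p = 0.471). Foxred2, a flavoprotein of the endoplasmic reticulum that takes part in the disposal of misfolded proteins, was at 1.09, 1.16 and 1.08 in young and 0.793, 0.771 and 0.815 in old MPP3, and its 3 old values were nearly equal. Ldb1, the adaptor by which LIM-domain and GATA factors of blood cells form complexes, was at 2.90, 2.91 and 2.93 in young MPP3 against 2.64, 2.59 and 2.67 in old MPP3, a difference of -0.278 ± 0.0303 (SE, limma adjusted p = 0.471). All 3 old values of Ldb1 lay within a narrow band below the equally narrow young ones. Scaf8, which binds the tail of RNA polymerase II, differed by -0.254 ± 0.0278 (SE), and Tada2a, an adaptor of histone acetyltransferase complexes, by -0.311 ± 0.0412 (SE).

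The remaining genes at this end had varied roles. Mrps12, a protein of the small subunit of the mitochondrial ribosome, was at 2.65, 2.49 and 2.55 on the young arrays and 2.03, 2.14 and 2.07 on the old ones, with a difference of -0.485 ± 0.0539 (SE). Krtcap2, a subunit of the oligosaccharyltransferase that puts N-linked glycans on proteins, differed by -0.363 ± 0.0411 (SE), and Trappc5, of the TRAPP vesicle tether, by -0.364 ± 0.0506 (SE). Dynll1, a light chain of dynein, was at 2.80, 2.86 and 2.78 in young and 2.36, 2.48 and 2.47 in old MPP3. Prkacb, a catalytic subunit of protein kinase A, and Trp53inp1, a target of p53, differed by -0.298 ± 0.0421 (SE) and -0.360 ± 0.0487 (SE). Snhg17, a host gene of small nucleolar RNAs, differed by -0.269 ± 0.0335 (SE), N4bp2l2 by -0.264 ± 0.0292 (SE) and Eid2, an inhibitor of the EP300 acetyltransferase, by -0.235 ± 0.0334 (SE). Ifi206, of the interferon-inducible p200 family, was at 0.752, 0.842 and 0.940 in young MPP3 against 0.362, 0.259 and 0.449 in old MPP3. Members of that family are close in sequence, so its probe set may read more than this gene.

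**Figure D1:**
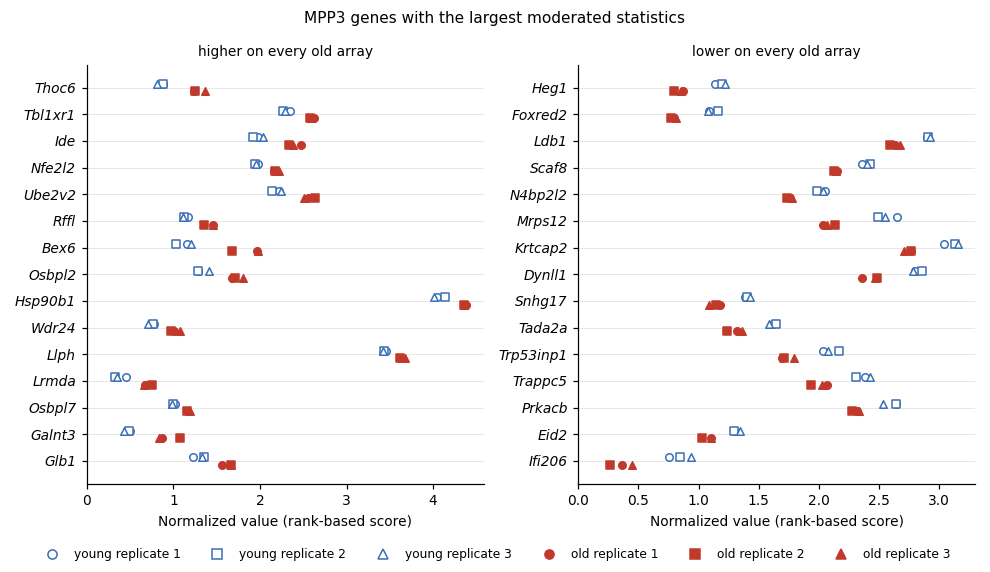
Normalized value (x axis, rank-based score) of the 15 genes with the largest positive (left) and the 15 with the largest negative (right) moderated statistic, 1 gene per row. Open blue points are the 3 young and filled red points the 3 old MPP3 arrays, with the shape giving the replicate. In each row the colours do not overlap, and the points of a colour lie close together. Both traits follow from how the genes were chosen.

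Ranked by size instead, genes of myeloid cells stood among the highest, and 1 array carried much of their size. S100a8, a subunit of the neutrophil protein calprotectin, was at 0.846, 1.93 and 1.54 on the young arrays and 2.31, 3.63 and 2.38 on the old ones, a difference of 1.34 ± 0.464 (SE, limma adjusted p = 0.576). Trem3, a myeloid receptor of the TREM family, was at 0.668, 0.622 and 0.406 in young and 1.68, 2.43 and 1.27 in old MPP3, a difference of 1.23 ± 0.304 (SE, limma adjusted p = 0.507). Nucb2, a calcium-binding protein, was at 0.654, 1.40 and 0.862 in young MPP3 against 2.18, 2.85 and 1.67 in old MPP3. In these 3 genes old replicate 2 was the highest array. Across the 35 genes that were higher by more than 0.5 without overlap, old replicate 2 was the highest array in 31 (88.6%), and across the 22 that were lower by more than 0.5 it was the lowest in 16 (72.7%). Among all 1176 higher genes without overlap, in contrast, old replicate 2 was the highest in 34.7% and old replicate 3 in 42.1%.

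Enzymes of lipids and of haem were among the same genes. Sgms2, a sphingomyelin synthase, was at 0.460, 0.450 and 0.465 on the young arrays and 1.36, 2.53 and 0.912 on the old ones, and its 3 young values were nearly equal. Far2, which reduces fatty acyl-CoA to alcohols, was at 0.718, 0.666 and 0.355 in young and 1.33, 2.70 and 0.900 in old MPP3. Alas1, the rate-limiting enzyme of haem synthesis outside erythroid cells, was at 0.876, 1.13 and 0.912 in young MPP3 against 2.02, 2.63 and 1.32 in old MPP3, a difference of 1.02 ± 0.337 (SE). Arhgdib was already in the top 0.986% of the array at its young mean and in the top 0.319% at its old mean, with values of 4.57, 4.79 and 4.50 on the young arrays and 5.34, 6.48 and 5.42 on the old ones. Aldh1a1, a retinaldehyde dehydrogenase known from lists of stem cell aging, departed from this order. It was at 0.670, 1.08 and 0.954 in young and 2.26, 1.27 and 2.26 in old MPP3, so that old replicate 2 was the lowest of the old arrays, only just above the highest young one.

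The 8 genes on the lower side had varied roles, among them genes of lymphoid cells and of the interferon response. Jchain, which joins IgM and IgA into polymers, was at 2.92, 3.16 and 3.29 in young MPP3 against 1.40, 2.53 and 2.78 in old MPP3, a difference of -0.882 ± 0.381 (SE, limma adjusted p = 0.630) that rested largely on old replicate 1. Pou2af1, the B cell coactivator OCA-B, was at 2.05, 1.95 and 1.96 on the young arrays and 1.02, 1.24 and 1.71 on the old ones, again lowest on old replicate 1. Rtp4, induced by interferon, was at 1.95, 1.85 and 1.97 in young and 1.45, 0.726 and 1.41 in old MPP3, lowest on old replicate 2. Trim30d, of an interferon-inducible cluster of close paralogs whose probes may be shared, was at 1.59, 1.78 and 1.54 in young MPP3 against 1.28, 0.735 and 1.04 in old MPP3, again lowest on that array. Fyn, a kinase of the Src family, was at 1.30, 1.73 and 1.60 on the young arrays and 1.24, 0.515 and 1.06 on the old ones. For these genes the size of the difference depended on 1 of the old arrays. Plxdc2, a transmembrane protein, had the smallest SE of the 8, at 1.16, 1.30 and 1.50 in young and 0.603, 0.549 and 0.788 in old MPP3, a difference of -0.673 ± 0.109 (SE). Myl10, a myosin light chain, was at 2.83, 1.85 and 1.71 in young MPP3 against 1.25, 1.28 and 1.51 in old MPP3, so that young replicate 1 alone gave much of the difference. The zinc finger gene Zfp871 was at 2.06, 2.72 and 2.78 on the young arrays and 1.57, 1.76 and 2.0 on the old ones, with young replicate 1 the nearest to the old arrays.

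**Figure D2:**
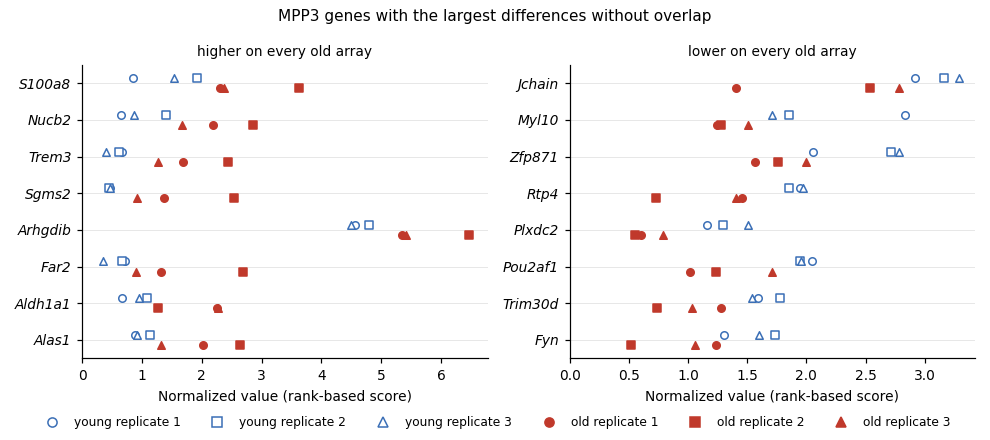
Normalized value (x axis, rank-based score) of the 8 genes with the largest positive (left) and the 8 with the largest negative (right) difference among genes without overlap, 1 gene per row, with open blue points for young and filled red points for old MPP3 arrays. The old points of a row are spread far more widely than in the ranking by statistic, which by its rule favours a small spread. Old replicate 2 (square) is outermost in 7 of the 8 higher genes.

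Genes of the myeloid lineage had higher mean values in old MPP3, by amounts that differed from array to array. Of 12 measured genes of primary granules, the lysosome-like stores that granulocyte progenitors fill first, 11 had a higher old mean, with a median difference of 0.608 against 0.000183 over all genes. Their mean value per array was 1.99, 2.49 and 2.19 on the young arrays and 2.87, 3.31 and 2.32 on the old ones. Old replicate 3 lay within the young range and old replicate 2 was the highest. Elane, neutrophil elastase, was at 1.17, 2.05 and 1.46 in young and 2.60, 3.43 and 1.93 in old MPP3, with old replicate 3 inside the young range. Ctsg, cathepsin G, was at 2.18, 3.04 and 2.51 in young MPP3 against 3.59, 4.25 and 2.88 in old MPP3, in the same order of arrays. Mpo, myeloperoxidase, and Ms4a3, a membrane protein of granulocyte and monocyte progenitors, differed by 1.16 ± 0.548 (SE) and 1.27 ± 0.630 (SE), in both with overlapping groups. Serpinb1a, which inhibits the granule proteases, was the group's gene with the largest statistic, at 1.76, 1.99 and 1.96 on the young arrays and 2.62, 2.66 and 2.23 on the old ones, and with Prss57 it made up the 2 genes of the group without overlap. Without old replicate 3 the group's median was 0.772, without old replicate 2 it was 0.376, and against young replicate 1 alone 0.735.

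Other myeloid groups followed, with smaller medians. In the late neutrophil group 14 of 20 genes had a higher old mean, with a median of 0.121 that was 0.0310 without old replicate 2. Its 3 genes higher without overlap included S100a8 and Cxcr2, the chemokine receptor of neutrophils, and 1 gene was lower without overlap. Cxcr2 was at 0.476, 0.226 and 0.324 in young and 0.575, 1.15 and 0.939 in old MPP3. Pglyrp1 and S100a9, both stored in neutrophils, differed by 0.664 ± 0.352 (SE) and 0.626 ± 0.314 (SE) with overlapping groups. Ly6g and Ltf, genes of finished neutrophils, differed by -0.00727 ± 0.0225 (SE) and 0.0264 ± 0.0283 (SE). All 5 measured subunits of the phagocyte NADPH oxidase had a higher old mean, but without old replicate 2 only 3 did, and the median was 0.0216 in place of 0.200. Ncf1, its cytosolic organizer, was at 0.996, 0.810 and 0.759 in young MPP3 against 1.43, 1.99 and 1.17 in old MPP3. For Cyba, the small membrane subunit, the old mean was higher through old replicate 2 alone, with values of 1.28, 1.24 and 1.19 on the young arrays and 1.20, 1.88 and 1.23 on the old ones.

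Of 14 genes of mast cells, basophils and eosinophils 11 had a higher old mean, with a median of 0.362. The mean per array was 0.584, 0.763 and 0.741 on the young arrays and 1.28, 1.25 and 0.652 on the old ones, high on old replicates 1 and 2 and low on old replicate 3. Without overlap 3 (21.4%) were higher, against 6.14% of all genes, and 1 (7.14%) was lower, against 8.04%. Epx and Ms4a2, the beta chain of the IgE receptor, were among those higher on each old array. Ms4a2 was at 0.135, 0.185 and 0.200 in young and 0.767, 0.832 and 0.210 in old MPP3, where old replicate 3 was just above the young arrays. Prg2, the major basic protein of eosinophils, and Mcpt8, a basophil protease, showed the same split of the old arrays. Prg2 was at 1.36, 1.82 and 1.82 in young MPP3 against 3.26, 3.20 and 1.46 in old MPP3. As markers of cells outside the gate, the 3 basophil and mast cell genes had a mean of 0.823 to 1.36 on the young and 1.13 to 2.07 on the old arrays, and the 2 eosinophil genes of 0.782 to 1.03 and 0.938 to 2.03. Whether such cells were part of the granule and myeloid differences was not tested.

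In the 22 genes of monocytes, macrophages and dendritic cells the directions were mixed, with 4 higher and 3 lower without overlap. Ms4a6c, a membrane protein of monocytes, was at 1.40, 1.27 and 1.53 on the young arrays and 2.49, 2.31 and 1.74 on the old ones. Vcam1, an adhesion molecule, was at 0.439, 0.608 and 0.408 in young and 0.866, 1.74 and 0.885 in old MPP3, highest on old replicate 2. Ctss, cathepsin S of antigen-presenting cells, lay on the other side at 2.57, 2.56 and 2.57 in young MPP3 against 1.67, 2.13 and 2.34 in old MPP3, and its 3 young values were nearly equal. Among 19 myeloid receptors 14 had a higher old mean, 4 of them without overlap. Fcgr3, an Fc receptor for IgG, was at 0.771, 0.873 and 0.693 on the young arrays and 1.27, 1.85 and 1.34 on the old ones. Ifngr1, the ligand-binding chain of the interferon gamma receptor, was at 2.14, 2.38 and 2.29 in young and 2.96, 3.36 and 2.46 in old MPP3. Il18rap, a chain of the interleukin 18 receptor, was the receptor lower without overlap, at 1.23, 1.42 and 1.41 in young MPP3 against 1.18, 1.17 and 0.934 in old MPP3.

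Transcription factors of the myeloid lineage had no settled direction. Of 14 such factors 6 had a higher old mean, and the median of -0.0142 became 0.0664 against young replicate 1 alone, 0.0387 without old replicate 3 and 0.0372 without young replicate 1. Cebpe, which drives the late granules of neutrophils, was higher without overlap at 1.10, 1.12 and 1.01 on the young arrays and 1.13, 1.76 and 1.45 on the old ones, with old replicate 1 only just above the young arrays. Klf4, a factor of monocytes that also belongs to the immediate early group, was lower at 0.916, 0.699 and 0.776 in young and 0.637, 0.680 and 0.480 in old MPP3. Of 26 pattern recognition genes, which sense microbial molecules, 20 had a higher old mean, or 15 without old replicate 2, with a median of 0.0279. Without overlap 3 (11.5%) were higher and 2 (7.69%) lower. Tlr6, a Toll-like receptor, was higher at 0.349, 0.288 and 0.255 in young MPP3 against 0.456, 0.584 and 0.560 in old MPP3, all below the middle of the array. Clec4e, a lectin that binds mycobacterial glycolipid, was higher at 1.06, 0.972 and 1.26 on the young arrays and 1.38, 1.40 and 1.40 on the old ones, with nearly equal old values. Ticam1, the adaptor of Toll-like receptor 3, was lower at 0.759, 0.746 and 0.792 in young and 0.683, 0.637 and 0.514 in old MPP3. Of the 31 genes of the NF-kB, interleukin 1 and TNF response 3 (9.68%) were higher and 4 (12.9%) lower without overlap, against 6.14% and 8.04% of all genes. The group had no direction, with 16 of 31 genes higher and a median of 0.00504. Tnf itself was at 0.685, 0.762 and 0.798 in young MPP3 against 1.01, 0.904 and 1.08 in old MPP3, higher on every old array. Socs3, a feedback inhibitor of cytokine receptors, was at 0.679, 0.634 and 0.745 on the young arrays and 0.532, 0.558 and 0.548 on the old ones, lower on every old array.

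Lysosomal genes lay in the same direction as the granule genes. Of 25 genes 19 had a higher old mean, with a median of 0.128 and medians on old replicates 1, 2 and 3, each against the young mean, of 0.103, 0.322 and -0.0218. Without old replicate 2 the group's median was 0.0409. Glb1, the lysosomal beta-galactosidase, was at 1.23, 1.36 and 1.33 in young and 1.56, 1.67 and 1.66 in old MPP3. Ctsa, the protective protein that accompanies it, was at 1.47, 1.13 and 1.20 in young MPP3 against 1.57, 1.62 and 1.53 in old MPP3, a less regular difference. Tfeb, the transcription factor of lysosomal genes, was lower on every old array, at 0.600, 0.552 and 0.670 on the young arrays and 0.527, 0.510 and 0.483 on the old ones. The genes without overlap, 2 higher (8%) and 1 lower (4%), were near the background of 6.14% and 8.04%.

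Genes of protein folding in the endoplasmic reticulum (ER) were higher and lower in part. Of 40 genes 24 had a higher old mean, 7 (17.5%) were higher without overlap and 4 (10%) lower, against 6.14% and 8.04% of all genes. Several chaperones and folding enzymes were among the higher genes. Hsp90b1, the ER form of HSP90, was at 4.05, 4.14 and 4.01 in young and 4.38, 4.36 and 4.36 in old MPP3, a difference of 0.297 ± 0.0410 (SE, limma adjusted p = 0.471). Pdia3, a disulfide isomerase, was at 2.80, 3.0 and 2.98 in young MPP3 against 3.18, 3.23 and 3.26 in old MPP3. Hyou1, a large ER chaperone, was at 1.62, 1.67 and 1.58 on the young arrays and 1.88, 2.23 and 1.96 on the old ones, again without overlap. Canx, the lectin chaperone calnexin, was at 3.90, 3.53 and 3.58 in young and 4.0, 3.89 and 4.06 in old MPP3, where young replicate 1 just reached the old range. Spcs2, of the signal peptidase, and Edem1 and Dnajc3, which serve disposal and folding, differed by 0.233 ± 0.0610 (SE), 0.283 ± 0.0813 (SE) and 0.195 ± 0.0608 (SE).

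A regulator, some disposal genes and a signal peptidase gene were among the lower ones, unlike Edem1 and Spcs2 of the same functions above. Atf4, the transcription factor made when ER stress or amino acid lack slows translation, was at 2.02, 2.20 and 2.30 in young MPP3 against 1.90, 2.01 and 1.67 in old MPP3, lower on every old array but only narrowly on old replicate 2. Herpud1, a part of the ER disposal machinery, was at 1.90, 1.96 and 2.01 on the young arrays and 1.72, 1.74 and 1.82 on the old ones. Derl1, a channel of the same machinery, and Spcs1, of the signal peptidase, were lower without overlap too. Hspa5, the main ER chaperone BiP, was at 3.46, 3.55 and 3.42 in young and 3.41, 3.59 and 3.41 in old MPP3, where the groups overlapped, and its difference of -0.00673 changed sign when single arrays were left out. Calr, its fellow chaperone calreticulin, differed by 0.114 ± 0.104 (SE) with overlapping groups. The median of the whole group was 0.105, and on old replicates 1, 2 and 3 it was 0.112, 0.232 and -0.0105. Without old replicate 2 it was 0.0427. Hsp90b1, Canx, Dnajc3 and Hspa5 are given with part of their promoters, since the group is known for a shared promoter element. Capitals mark each match to the ER stress element, written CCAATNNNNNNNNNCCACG and searched on both strands in RefSeq promoters (GRCm38.p6) from 250 bases before to 50 after the start. The windows lie at chr10:86705513-86705676, minus strand, chr11:50325760-50325859, minus strand, chr14:118937786-118937885, plus strand and chr2:34771984-34772083, plus strand.
Hsp90b1: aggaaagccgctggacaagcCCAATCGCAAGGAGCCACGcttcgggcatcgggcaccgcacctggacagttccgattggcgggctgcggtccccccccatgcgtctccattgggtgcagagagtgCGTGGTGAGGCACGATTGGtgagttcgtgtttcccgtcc
Canx: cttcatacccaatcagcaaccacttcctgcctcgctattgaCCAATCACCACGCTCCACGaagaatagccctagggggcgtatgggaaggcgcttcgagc
Dnajc3: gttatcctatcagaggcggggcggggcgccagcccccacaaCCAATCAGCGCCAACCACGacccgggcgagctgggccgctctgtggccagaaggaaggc
Hspa5: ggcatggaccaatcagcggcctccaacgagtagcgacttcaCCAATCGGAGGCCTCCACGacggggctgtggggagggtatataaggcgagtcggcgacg

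Hsp90b1 held the element on both strands, and the other 3 held it once. It was found in 9 of the 33 genes of the group with a promoter window (27.3%) and in 20 of all 15258 measured genes with one (0.131%). Of the 9 genes with a match 5 had a higher old mean, with a median difference of 0.114. Of the 24 without it 14 did, with a median of 0.0890. A match describes letters in this window and is not a site of binding.

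The proteasome, which degrades ubiquitin-tagged proteins, showed small differences. Of 48 subunit and assembly genes 31 had a higher old mean, 8 (16.7%) were higher without overlap and 1 (2.08%) lower. The genes higher on every old array came from the core as well as the regulatory cap. Psma4, of the core ring, was at 2.82, 2.83 and 2.86 in young MPP3 against 2.97, 2.97 and 3.03 in old MPP3. Psmc1, an ATPase of the cap, was at 2.55, 2.69 and 2.66 on the young arrays and 2.81, 2.86 and 2.83 on the old ones. Psmd4, its ubiquitin receptor, was at 1.97, 1.85 and 1.86 in young and 2.21, 2.10 and 2.09 in old MPP3. In each of these the old arrays were close to each other and clear of the young ones. Psma1 was the single subunit lower without overlap, at 3.10, 3.16 and 3.19 in young MPP3 against 2.98, 3.08 and 2.97 in old MPP3. The median over the group was 0.0764, with 0.0556, 0.116 and -0.0112 on old replicates 1, 2 and 3. It was 0.0369 without old replicate 2 and 0.0215 against young replicate 1 alone.

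**Figure D3:**
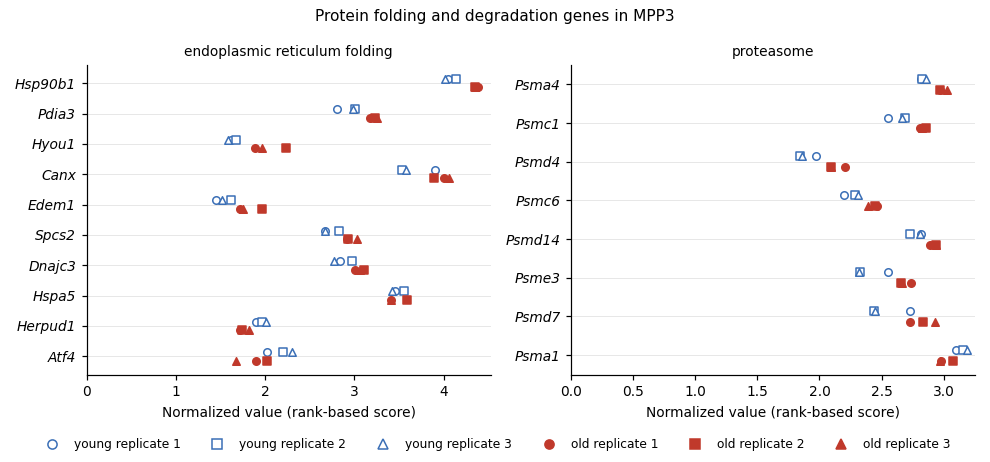
Normalized value (x axis, rank-based score) of genes of protein folding in the ER (left) and of the proteasome (right), 1 gene per row, with open blue points for the 3 young and filled red points for the 3 old MPP3 arrays. Hsp90b1, Pdia3, Hyou1 and most of the proteasome genes drawn lie to the right on the old arrays, while Herpud1, Atf4 and Psma1 lie to the left. The genes drawn are a selection made with their values known. Of the whole groups, 16 of 40 ER folding genes and 17 of 48 proteasome genes had a lower old mean.

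Genes of the G2 and M phases had mostly higher means in old MPP3, and here too the old arrays differed. Of 70 genes 59 (84.3%) had a higher old mean, against 50.1% of all genes, and 14 (20%) were higher without overlap. The median was 0.110, with 0.130, 0.213 and 0.00216 on old replicates 1, 2 and 3, and it was 0.0549 without old replicate 2. Aurka, the kinase of spindle poles, was at 1.80, 1.66 and 1.62 on the young arrays and 1.98, 2.23 and 2.10 on the old ones. Cdca8, of the chromosomal passenger complex at centromeres, was at 1.91, 1.78 and 1.85 in young and 2.09, 2.12 and 2.23 in old MPP3. In both genes old replicate 3 was clear of the young range, although its median over the group was near 0. Incenp, of the same complex as Cdca8, differed by 0.311 ± 0.0664 (SE) and Kif11, the spindle motor, by 0.234 ± 0.0609 (SE). The gene with the largest statistic of the group ran the other way: Cdca5, which holds cohesin on sister chromatids, was at 1.85, 1.61 and 1.72 in young MPP3 against 1.25, 1.37 and 1.27 in old MPP3, a difference of -0.429 ± 0.0713 (SE, limma adjusted p = 0.471). Genes of DNA replication did not share the direction, with 22 of 46 higher and a median of -0.00440.

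Promoters of many such genes carry the cell cycle homology element, shown in capitals for Aurka (chr2:172370521-172370620, minus strand) and Cdca8 (chr4:124936868-124936967, minus strand) because these had the largest positive statistics of the group.
Aurka: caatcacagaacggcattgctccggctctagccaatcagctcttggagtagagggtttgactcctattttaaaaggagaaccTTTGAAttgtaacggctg
Cdca8: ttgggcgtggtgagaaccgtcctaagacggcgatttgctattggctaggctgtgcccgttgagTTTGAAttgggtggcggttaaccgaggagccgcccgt

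The letters TTTGAA, searched on both strands, were found in 42 of the 60 genes of the group with a promoter window (70%) and in 17.3% of all measured genes with one. The genes with the letters had a median difference of 0.125, with 9 of 42 higher without overlap. Those without had a median of 0.0690, with 1 of 18 higher without overlap. A string of this length occurs often by composition, and a match is no evidence of binding.

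Interferon response genes had mostly lower means in old MPP3. Of 46 genes 40 had a lower old mean, 12 (26.1%) were lower without overlap, against 8.04% of all genes, and the median was -0.135. All 3 old arrays had a negative median against the young mean (-0.0867, -0.239 and -0.0726), and against young replicate 1 alone the median was -0.103 and without old replicate 2 it was -0.0889. Rtp4, given above, was among the 12. Xaf1, a proapoptotic interferon target, was at 1.02, 1.30 and 1.33 on the young arrays and 0.925, 0.692 and 0.823 on the old ones. Mx2, an antiviral GTPase, was at 0.253, 0.266 and 0.300 in young and 0.143, 0.156 and 0.147 in old MPP3, where all 6 values were below the middle of the array. Irf9, the DNA-binding subunit of the factor ISGF3, was at 1.15, 1.26 and 1.11 in young MPP3 against 0.949, 0.941 and 0.542 in old MPP3. Stat2, another subunit of that factor, overlapped narrowly at 1.06, 1.18 and 1.20 on the young arrays and 0.975, 1.01 and 1.07 on the old ones. Ifitm3, a restriction factor of viral entry, was at 3.73, 3.65 and 3.70 in young and 3.42, 2.78 and 3.56 in old MPP3, lowest on old replicate 2. Ifitm3 and its neighbours Ifitm1 and Ifitm2 are close in sequence, so their probe sets may read more than 1 gene. Dhx58, a regulator of RNA sensing, was the gene of the group higher without overlap.

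The element that ISGF3 binds has the core GAAANNGAAA, in capitals in the promoters of Ifitm3, a member of the group (chr7:141010695-141010794, minus strand), and of Ifi206 (chr1:173491304-173491403, minus strand), shown because both were lower on every old array.
Ifitm3: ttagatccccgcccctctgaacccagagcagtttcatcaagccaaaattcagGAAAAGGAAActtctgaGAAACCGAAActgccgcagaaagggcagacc
Ifi206: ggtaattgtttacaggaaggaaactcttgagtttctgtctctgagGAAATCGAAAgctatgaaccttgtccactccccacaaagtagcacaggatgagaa

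This core can share letters with TTTGAA above. It was found on either strand in 17 of 36 group genes with a promoter window (47.2%) and in 3.87% of all measured genes with one. Of the 17 genes with the core 15 had a lower old mean and 1 was lower without overlap, and of the 19 without it 16 and 7. Most of the group's genes lower without overlap thus had windows that lacked these letters.

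Immediate early genes, which cells transcribe within minutes of a stimulus, lay on the same side. Of 30 genes 26 had a lower old mean and 9 (30%) were lower without overlap, with a median of -0.172. Dusp2, a phosphatase that switches off MAP kinases, was at 1.21, 1.24 and 1.29 in young MPP3 against 1.11, 0.966 and 0.940 in old MPP3. Dusp6, its relative with a preference for ERK, was at 1.64, 1.64 and 1.86 on the young arrays and 1.47, 1.29 and 1.57 on the old ones. In both the old arrays lay below all young ones. Nr4a1, an orphan nuclear receptor, differed by -0.476 ± 0.181 (SE), and Maff, a small MAF factor, by -0.387 ± 0.118 (SE), both without overlap. Fos, the best known of these genes, differed by -0.303 ± 0.210 (SE) with overlapping groups. Against young replicate 1 alone the median was -0.251, and 2 of 30 genes had a higher old mean.

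Genes of lymphoid priming had lower old means with 1 exception. Of 16 lymphoid priming genes 15 had a lower old mean, all but Notch1, with a median of -0.145 and -0.201, -0.302 and -0.0195 on old replicates 1, 2 and 3. Tcf3, the E protein E2A, was at 1.41, 1.30 and 1.29 in young and 1.12, 1.12 and 1.12 in old MPP3, with 3 nearly equal old values. Cd27, a receptor of the TNF receptor family, was at 2.88, 2.91 and 2.87 in young MPP3 against 2.56, 2.16 and 2.62 in old MPP3, lowest on old replicate 2. Dntt and Il7r, early lymphoid genes, differed by -0.386 ± 0.387 (SE) and -0.373 ± 0.155 (SE) with overlapping groups. Of 17 B lineage genes 14 had a lower old mean, but old replicate 3 was above the young mean in 11 of the 17, with array medians of -0.192, -0.244 and 0.108. Among T and NK cell genes Cd247, the zeta chain of the T cell receptor complex, was at 0.945, 0.983 and 0.905 on the young arrays and 0.711, 0.721 and 0.638 on the old ones, a difference of -0.254 ± 0.0372 (SE, limma adjusted p = 0.471), although the group as a whole had no direction (9 of 20 higher).

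Genes of stem cell identity had a median of -0.191, and 21 of 27 had a lower old mean. All 6 genes without overlap (22.2%) were lower. Hoxa9, a homeobox factor of primitive blood cells, was at 1.17, 1.17 and 1.14 in young and 1.01, 0.906 and 0.793 in old MPP3. Hoxa10, its neighbour, was at 0.684, 0.927 and 0.925 in young MPP3 against 0.604, 0.520 and 0.557 in old MPP3. Txnip, an inhibitor of thioredoxin, was at 3.12, 3.17 and 3.23 on the young arrays and 2.87, 2.29 and 2.78 on the old ones. All 3 genes were lower on each old array. Meis1, a partner of the HOX proteins, differed by -0.484 ± 0.344 (SE) with overlapping groups. Old replicate 2 again had the largest median, with -0.0882, -0.292 and -0.0731 on the 3 arrays, and without it the group's median was -0.0908. Of 21 genes known to be higher in aged stem cells 15 had a higher old mean, 5 of them without overlap, and none was lower without overlap. Clu, clusterin, was at 0.488, 0.501 and 0.430 in young and 0.653, 0.704 and 0.868 in old MPP3, highest on old replicate 3.

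Among genes of the erythroid and megakaryocyte lineages few were clear of the young range, with 5.56% and 6.67% lower without overlap against 8.04% of all genes. Of 18 erythroid genes 14 had a lower old mean, with a median of -0.0542 that was -0.00263 against young replicate 1 alone. Car2, a carbonic anhydrase of early red cells, was the 1 without overlap, at 2.57, 2.87 and 2.90 in young MPP3 against 2.53, 1.58 and 2.54 in old MPP3, with old replicate 2 far below the rest. Of 15 megakaryocyte and platelet genes 10 had a lower old mean, with 1 gene higher and 1 lower without overlap. Zfpm1, the GATA1 partner FOG1, was at 1.43, 1.38 and 1.38 on the young arrays and 1.27, 0.965 and 1.11 on the old ones, lower on every old array. Fli1, an ETS factor of megakaryocytes and stem cells, was at 2.95, 2.99 and 2.86 in young and 3.05, 3.13 and 3.04 in old MPP3, higher on every old array.

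**Figure D4:**
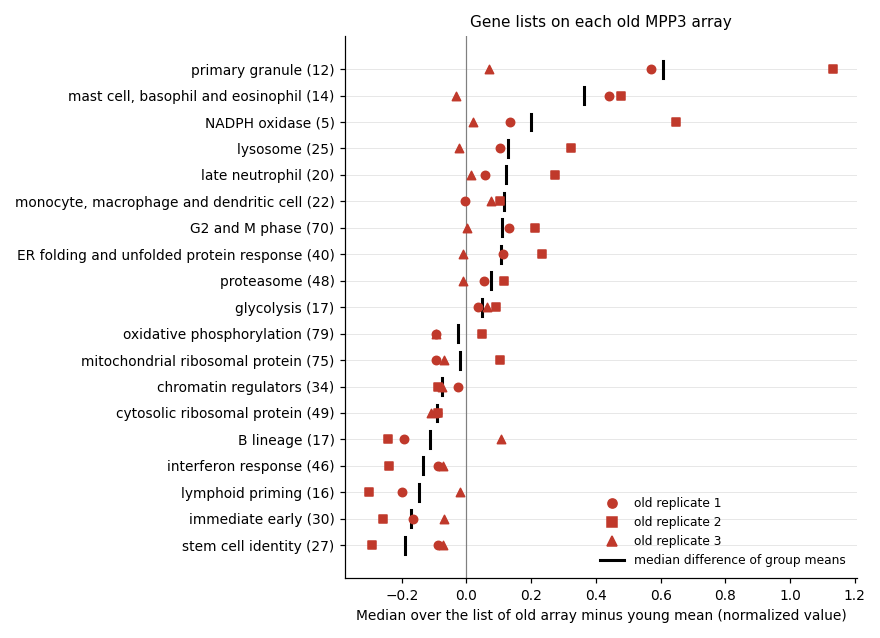
For 19 gene groups (number of genes in brackets), the median over the group of an old array's value minus the mean of the 3 young arrays (x axis, normalized value), with red points for old replicates 1 (circle), 2 (square) and 3 (triangle) and a black bar for the median difference of the group means. Old replicate 2 lies farthest from 0 in the granule, lysosome, G2 and M phase and interferon groups. All 3 points lie on the lower side in interferon response, immediate early, stem cell identity, lymphoid priming, chromatin regulators and cytosolic ribosomal protein.

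Mitochondrial genes had no common direction, and their shares without overlap were near the 6.14% higher and 8.04% lower of all genes. Of 75 mitochondrial ribosomal protein genes 6 (8%) were higher and 6 (8%) lower without overlap, and the median was -0.0195. At an unadjusted p under 0.05 by limma the shares were larger, with 6 (8%) higher and 9 (12%) lower. Over all genes these were 3.44% and 4.75%. Mrpl28, of the large subunit, stood with Mrps12 on the lower side at 1.47, 1.57 and 1.62 in young MPP3 against 1.11, 1.26 and 1.05 in old MPP3. Mrpl9, of the same subunit, was higher at 1.46, 1.36 and 1.34 on the young arrays and 1.74, 1.66 and 1.62 on the old ones. Mrps23, of the small subunit, was higher at 0.970, 0.876 and 0.887 in young and 1.37, 1.70 and 1.29 in old MPP3. Among 79 subunits of the respiratory chain and ATP synthase 4 (5.06%) were higher and 8 (10.1%) lower without overlap. At an unadjusted p under 0.05 by limma 2 (2.53%) were higher and 6 (7.59%) lower. Complex I had subunits on both sides. Its subunit Ndufa3 was at 2.36, 2.40 and 2.48 in young MPP3 against 1.95, 2.18 and 2.04 in old MPP3. Its subunit Ndufb10 was at 1.91, 2.01 and 2.09 on the young arrays and 2.21, 2.40 and 2.35 on the old ones. In both groups the medians of old replicates 1 and 3 were below 0 and that of old replicate 2 above.

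In glycolysis genes were higher and lower in about equal number. Slc2a3, the transporter GLUT3, was lower at 1.20, 1.21 and 1.38 in young and 0.979, 0.724 and 0.968 in old MPP3. Pfkl, a phosphofructokinase, was lower at 1.02, 1.06 and 1.05 in young MPP3 against 0.827, 0.828 and 0.961 in old MPP3. Hk3, a hexokinase of myeloid cells, was higher at 1.46, 1.23 and 1.04 on the young arrays and 1.87, 2.35 and 1.51 on the old ones, highest on old replicate 2. Pgk1, phosphoglycerate kinase, was higher at 3.29, 3.19 and 3.15 in young and 3.39, 3.41 and 3.35 in old MPP3. Tpi1, triosephosphate isomerase, differed by 0.236 ± 0.0724 (SE). In all, 3 of 17 genes were higher and 2 lower without overlap. Cytosolic ribosomal protein genes leaned lower by a similar amount on each old array (-0.0923, -0.0865 and -0.109), with 6 of 49 lower without overlap and none higher. Rps21 was at 4.50, 4.63 and 4.59 in young MPP3 against 4.42, 4.34 and 4.33 in old MPP3. Ribosomal genes have many processed copies, so their probe sets may read more than 1 locus, and against young replicate 1 alone the group's median was -0.00957.

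Some chromatin regulators were lower, among them subunits of the Polycomb complex that holds genes repressed. Of 34 genes 5 (14.7%) were lower without overlap and 1 higher. Cbx2, a chromodomain subunit of that complex, was at 1.62, 1.53 and 1.64 on the young arrays and 1.39, 1.24 and 1.31 on the old ones, and Phc1 and Ring1, of the same complex, differed by -0.225 ± 0.0552 (SE) and -0.183 ± 0.0504 (SE). Kdm6b, a histone demethylase that opposes Polycomb marks, was lower too, at 1.08, 1.07 and 1.17 in young and 0.874, 0.936 and 0.955 in old MPP3. Sirt7, a nuclear deacetylase, was the gene higher without overlap, at 0.947, 1.02 and 0.952 in young MPP3 against 1.29, 1.26 and 1.15 in old MPP3. Other Polycomb genes such as Bmi1 and Ezh2 were not among those without overlap.

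Among 29 autophagy genes 5 (17.2%) were lower without overlap and 1 was higher. The group had no settled direction: 13 genes had a higher old mean, and the median of -0.0462 became 0.0301 against young replicate 1 alone and 0.0125 without old replicate 3. Map1lc3b, the LC3 protein of the autophagosome, was at 2.71, 2.59 and 2.75 on the young arrays and 2.39, 2.41 and 2.49 on the old ones. Gabarapl1, of the same protein family, was at 1.91, 1.70 and 1.94 in young and 1.63, 1.57 and 1.55 in old MPP3. Atg10, an enzyme of the conjugation step, ran the other way at 1.29, 1.16 and 1.30 in young MPP3 against 1.62, 1.70 and 1.46 in old MPP3. Among 22 antioxidant genes Nfe2l2 was followed by Gstm1, a glutathione transferase, at 1.90, 2.43 and 2.20 on the young arrays and 3.02, 3.47 and 2.58 on the old ones, the only other gene of the group higher without overlap. Gstm genes are close paralogs, so its probe set may read more than 1 of them. Prdx4, the peroxiredoxin of the ER, was lower at 1.47, 1.83 and 1.90 in young and 1.28, 1.25 and 1.39 in old MPP3. The group's median was 0.000466, and Nqo1 and Hmox1, known targets of NRF2, were not among the genes without overlap.

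The same genes were read on the MPP4 arrays, which are separate samples of mice of the same ages. Whether the same mice gave both populations is not stated, and age and series cannot be told apart in MPP4 either. Of the 4 sex-linked genes 3 had a higher old mean in MPP4, as in MPP3, with median differences of 0.447 and 0.277. The groups overlapped in MPP4. Whether sex had a part in signs shared by MPP3 and MPP4 was not tested. Of the 30 genes with the largest statistics in MPP3, 20 (66.7%) had the same sign in MPP4, and 4 (13.3%) did not overlap there in the same direction. Over all genes 59.3% shared the sign and 4.82% did not overlap in the same direction. The sizes were much smaller in MPP4: the 15 higher genes had a median difference of 0.320 in MPP3 and 0.0947 in MPP4, and the 15 lower ones of -0.315 and -0.0715. As the genes were chosen for their size in MPP3, a smaller value elsewhere is built into the choice. The 8 genes with the largest positive differences had a median of 1.13 in MPP3 and 0.0278 in MPP4.

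Single genes differed in this respect. Ide differed by 0.540 ± 0.0640 (SE) in MPP4, Bex6 by 0.415 ± 0.137 (SE) and Aldh1a1 by 0.786 ± 0.205 (SE), each in the direction it had in MPP3. Among the lower genes Myl10 (-0.840 ± 0.271), Plxdc2 (-0.528 ± 0.202) and Krtcap2 (-0.285 ± 0.0756) were also lower in MPP4. S100a8 (0.0290 ± 0.201), Trem3 (-0.0168 ± 0.0222) and Sgms2 (0.0156 ± 0.0230) had MPP4 differences near 0, and Pou2af1 ran the other way (0.261 ± 0.211). The primary granule genes had a median of 0.0579 in MPP4, the lymphoid priming genes of 0.103 and the G2 and M phase genes of 0.262. Negative medians in MPP4 were found for immediate early (-0.0730), stem cell identity (-0.0878), interferon response (-0.0380) and cytosolic ribosomal protein genes (-0.0665). The chromatin regulators had a positive one (0.0399).

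**Figure D5:**
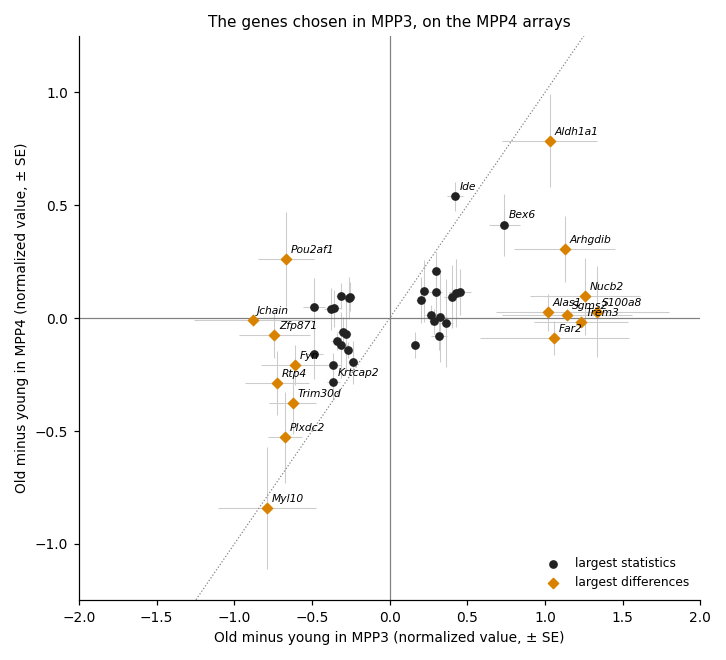
Difference of old minus young in MPP3 (x axis) and in MPP4 (y axis), in normalized value with the SE of each fit, for the 15 genes on each side with the largest statistics in MPP3 (black circles) and the 8 on each side with the largest differences (orange diamonds). The dotted line marks equal differences. Ide, Myl10, Plxdc2 and Krtcap2 lie near it, and S100a8, Trem3, Sgms2 and Far2 lie near the horizontal line of no difference in MPP4.

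Whether the age difference itself differed between the populations was tested over all 14 arrays. Of 19155 genes 0 (0%) passed the adjusted threshold in limma, with a smallest adjusted p of 0.2, and at an unadjusted p under 0.05 there were 542 genes with a more positive difference in MPP3 and 658 with a more negative one. The genes nearest to the threshold on the positive side were Birc7, Sh2d1b1, Sele, Ndufb10 and Irx6, and on the negative side Hivep2, Nfatc3, Spock1, Cbx2 and Foxred2. Ndufb10 had a difference of differences of 0.542 ± 0.109 (SE) and Sele, the adhesion molecule E-selectin, of 0.483 ± 0.0974 (SE). Nfatc3, a transcription factor activated by calcineurin, was at 2.44, 2.27 and 2.28 in young MPP3 against 2.10, 2.10 and 2.27 in old MPP3, and with an MPP4 difference of 0.289 ± 0.0242 (SE) its difference of differences was -0.463 ± 0.0695 (SE). Foxred2, lower in every old MPP3 array, had an MPP4 difference of 0.0979 ± 0.0578 (SE) and a difference of differences of -0.413 ± 0.0742 (SE) in limma, with an adjusted p of 0.413. None of these passed the test.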

How the data were processed

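RNA of sorted MPP3 and MPP4 was amplified with a linear kit and hybridized to Affymetrix Mouse Gene ST 1.0 arrays. The deposited values are a score that the authors made with RMA (version not given in the sources used here), mapping each array onto an exponential reference (lambda = 1). They were used as deposited. Of 22115 probe sets, 744 with several gene symbols and 2135 unlisted ones in GEO's platform annotation were left out. The probe set with the highest mean over all arrays stood for a gene (76 genes had several). Dim genes were kept.

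Old and young MPP3 were compared on their 6 arrays with limma 3.58.1 in R 4.3.3 (lmFit and eBayes, two-sided, Benjamini-Hochberg over 19155 genes, threshold 0.05), and the age differences of MPP3 and MPP4 in a fit of all 14 arrays. The fits were tested on simulated data. Alternatives were another quantile normalization, percent ranks, normal scores, a variance trend, array weights, the replicate number as a block, all groups in 1 fit, every probe set, dim probe sets left out, young replicate 1 alone and each array left out. Promoter letters came from RefSeq windows, 250 bases before to 50 after the start. The p-values measure the spread between these arrays, whose number limits the precision. Figures were drawn with Python 3.11.15.

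The comparison, the 53 gene lists and the naming rule were chosen with earlier results of these data known. Named were the 15 largest statistics and 8 largest differences on each side among genes without overlap and with a group mean of at least 0.693 (unnamed gene models, small nucleolar RNAs, olfactory, vomeronasal and sex-linked genes left out), up to 3 genes of each list by statistic, the sorting and sex-linked genes, and 5 genes on each side between MPP3 and MPP4. Other genes given with values were chosen after their values were seen.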

Additional observations from a re-analysis of the deposited data

How the results depend on the processing

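The number of arrays and the distance between them limit what these data can show. With 3 arrays at each age, 0 genes passed the threshold by limma, 0 also when any single array was left out, and 9 when all 4 groups shared 1 estimate of spread (Heg1, Birc7, Sh2d1b1, Trim46, Cd247, Snhg17, Spock1, Cbx2 and Mrpl28). With young replicate 1 as the only young array 1 passed, Xist. At an unadjusted p under 0.05, higher genes numbered 658 in the comparison as given, 1028 with all groups in 1 fit, 2662 with array weights, and 374 (without young replicate 3) to 1467 (without young replicate 1) when 1 array was left out. Lower genes numbered 910, then 515 with the dimmest probe sets left out, 2577 with array weights, and 524 to 1580 without the same arrays. Between MPP3 and MPP4 0 genes passed, against 2 with a variance trend, 574 with array weights and 0 to 10 when 1 array was left out, where the 10 were found without old MPP3 replicate 3. The cause of these shifts was not tested.

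The genes named by rank were chosen for groups that do not overlap, which fixes their sign when arrays are left out, so no sign is counted for them. Ranked by a SAM-type score instead, 9 of the 15 highest and 11 of the 15 lowest genes were the same genes. Against young replicate 1 alone the sign turned for Cd74 (0.0314), H2bc21 (0.123), Hspa5 (0.0105), Psmb10 (0.0286) and Slc7a5 (-0.0144). Leaving out 1 array, the differences ranged from -0.0245 to 0.319 for Cyba, from -0.0686 to 0.0314 for Hspa5, from -0.253 to 0.293 for Uty and from -1.64 to 0.0499 for Xist, and array weights gave -0.134 for Uty. Of 51 gene groups, 22 had a median that turned sign under some alternative, 16 of them against young replicate 1 alone. The largest median among those 22 was 0.0933 in size. With the replicate number as a block, 0 genes passed in either comparison, with 614 higher and 772 lower genes at an unadjusted p under 0.05. Deviations of same-numbered arrays correlated at -0.105, 0.255 and -0.192, so the numbers were not taken to pair the arrays.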

Other observations

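Several gene groups that the comparisons above do not cover held single genes with close replicates. The electron transfer flavoprotein, which passes electrons from fatty acid oxidation to the respiratory chain, was higher in old MPP3 in both of its subunits. Etfa was at 2.73, 2.78 and 2.82 in young and 2.95, 2.91 and 2.92 in old MPP3, a difference of 0.152 ± 0.0337 (SE). Etfb was at 3.09, 3.06 and 3.02 in young MPP3 against 3.36, 3.58 and 3.14 in old MPP3, a difference of 0.300 ± 0.114 (SE). Neither overlapped between the ages, although the 19 genes of fatty acid oxidation had a median of -0.0189. The pyruvate dehydrogenase complex was split, with Pdha1, its alpha subunit, at 1.13, 1.17 and 1.25 on the young arrays and 1.30, 1.57 and 1.32 on the old ones and Pdhb, its beta subunit, at 2.06, 2.20 and 2.20 in young and 1.89, 2.03 and 1.96 in old MPP3. Both subunits were free of overlap and had opposite signs. Lars, the leucyl-tRNA synthetase, was at 2.50, 2.61 and 2.49 in young MPP3 against 2.79, 2.88 and 2.78 in old MPP3, and all 3 old arrays had a positive median over the 18 synthetase genes (0.0537, 0.0523 and 0.0653).

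Of 26 cell cycle inhibitors and p53 targets 3 (11.5%) were lower without overlap, near the 8.04% of all genes, and none was higher. In all, 11 of the 26 had a higher old mean, and the median was -0.0333. Besides Trp53inp1 the lower genes were Plk2 and Phlda3. Plk2, a polo-like kinase, was at 0.700, 0.559 and 0.778 on the young arrays and 0.458, 0.380 and 0.426 on the old ones. Phlda3, an inhibitor of AKT, was at 0.466, 0.532 and 0.579 in young and 0.450, 0.444 and 0.400 in old MPP3. All values of Phlda3 and the old values of Plk2 were below the middle of the array. Trp53bp1, which binds at DNA breaks, was at 1.55, 1.63 and 1.54 in young MPP3 against 1.39, 1.43 and 1.41 in old MPP3, lower on every old array, while the 55 genes of DNA repair had a median of -0.0282. Emcn, the sialomucin endomucin of endothelium and stem cells, was at 0.896, 1.13 and 0.885 on the young arrays and 0.263, 0.397 and 0.631 on the old ones, and young and old arrays did not overlap. Of 1006 olfactory receptor genes, which marrow progenitors are not known to use, 59 (5.86%) were higher and 67 (6.66%) lower without overlap, near the shares over all genes. Limma called none of the genes named here.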
